A study of Mus musculus with 5 samples.

Results

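MCC, which its label calls a myeloid-like cell complex, was set against the 4 other mouse libraries of the series together, to find the genes whose level in MCC lay outside the range spanned by all of them. A gene was counted as above when its level in MCC was at least 4-fold the highest of the 4 others and at least 5 CPM (read counts relative to a scaled library size). It was counted as under when its level in MCC was at least 4-fold below the lowest of the 4 others and that lowest level was at least 5 CPM. Counts under 3 were set to 3. Of 34970 genes in the table, 240 were above and 18 were under. Of the 11184 genes that reached 5 CPM in MCC, 2.15% were above, and of the 8023 genes that reached 5 CPM in all 4 others, 0.224% were under. These levels chose the genes, so the values below describe them and test nothing.

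The 5 groups held 1 wild-type library each. PB came from blood cells, which the design text calls CD45-positive; leukocytes carry that protein. BM came from whole bone marrow, MEF from mouse embryonic fibroblasts and iPSC from induced pluripotent stem cells. The series title concerns the conversion of fibroblasts into macrophages; the sources used here give no strain or age and do not say how the MCC cells were made. With 1 library per group there is no replicate error and hence no test, and intervals after a fold are 95% counting intervals, which cover counting error only. Any weighted average of the PB, BM, MEF and iPSC levels lies between the lowest and the highest of them, so a level above or under all 4 cannot come from averaging these 4 libraries. PB and BM are mixtures of cell types, so a level above that of whole marrow is not a level above that of the macrophages within it. In bulk RNA, fewer cells of a type and less RNA per cell cannot be told apart.

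Macrophages resident in tissues differ from circulating monocytes in the genes they use: they make complement C1q, scavenger and mannose receptors and lysosomal proteases, and the transcription factor MAF is known as a regulator of that state. Fibroblasts of loose connective tissue are known for decorin, lumican, dermatopontin, secreted Wnt inhibitors and the receptor PDGFRA, whereas fibroblasts grown on plastic take on a contractile state. Whole blood and marrow are rich in neutrophils, lymphocytes and red cell precursors, in which few of these genes are used.

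Total counts ranged from 30078366 in PB to 47557598 in MCC. Defining markers were read first as a check of the labels. Summed, pluripotent markers were highest in iPSC (780 CPM), fibroblast markers in MEF (16923 CPM) and neutrophil markers in BM (47189 CPM). Epithelial markers summed to 1325 CPM in iPSC, and red cell markers to 3529 CPM in PB and 3284 CPM in BM. All 5 macrophage markers (Adgre1, Csf1r, Cd68, Fcgr1 and Mertk) and all 5 fibroblast markers (Col1a1, Col1a2, Pdgfra, Pdgfrb and Thy1) reached 5 CPM in MCC, with summed levels of 2086 and 13540.2 CPM. No defining marker of neutrophils, B cells, T cells, red cells, pluripotent cells, endothelium, epithelium, adipocytes, muscle, glia, neurons, hepatocytes or mast cells reached 5 CPM in MCC. The summed levels of those 13 lists in MCC lay between 0 CPM for muscle, where all 3 markers had 0 reads, and 3.73 CPM for neutrophils. The PB library carries a library code set apart from those of the other 4; what the code stands for is not stated, and any difference that goes with it cannot be told apart from the PB group.

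The nearest other library, meaning the one with the highest level after MCC, was MEF for 122 of the 240 genes above, BM for 55, iPSC for 34 and PB for 29. A gene with 0 reads in all 4 others, such as Reg3g or Kera, was counted under PB, although no library was second. Sorted by where else they were found, a grouping made after the values were seen, 30 genes were on the blood side: PB or BM was at least 4-fold higher than MEF and iPSC. Another 82 were on the cultured side, with MEF or iPSC at least 4-fold higher than both blood libraries, and 83 were on neither side. The remaining 45 stayed under 1 CPM in all 4 other libraries. The 240 genes took 6.24% of the MCC counts, against 0.591% in MEF, 0.305% in BM, 0.224% in PB and 0.205% in iPSC. Their median ratio to the nearest library was 8.19-fold; 102 were at least 10-fold above it and 11 at least 100-fold. Genes of the cultured side took 2.91% of the MCC counts, those of neither side 2.01% and those of the blood side 1.18%.

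**Figure D1:**
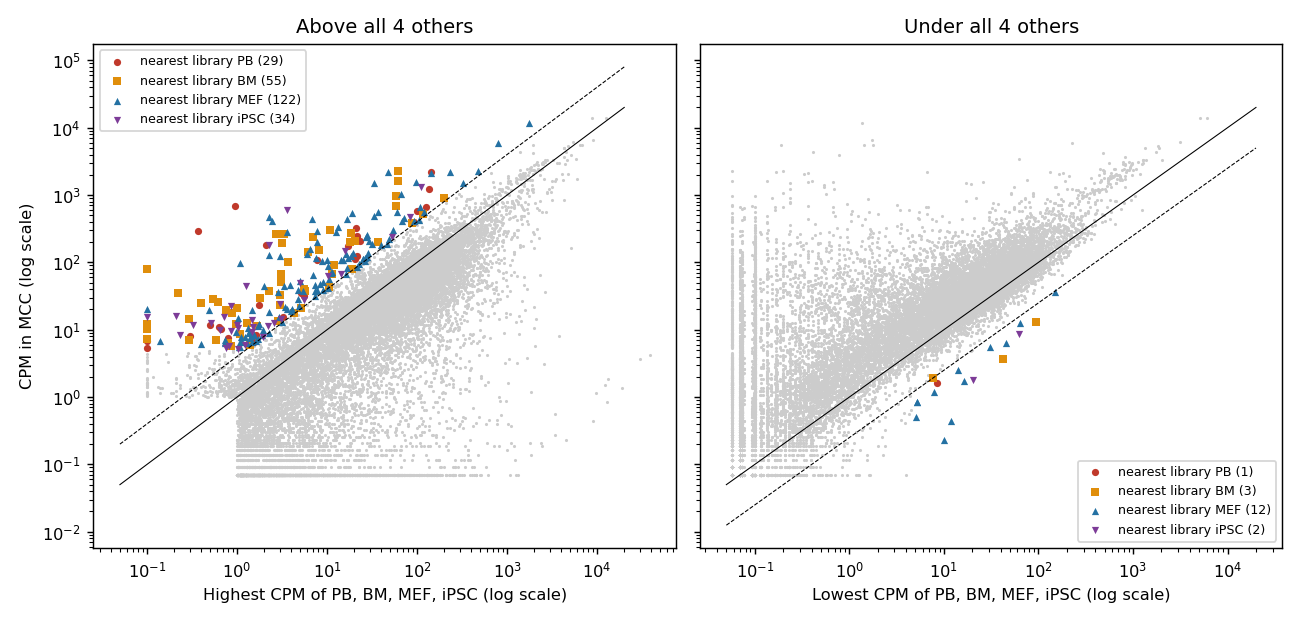
Each point is a gene that reached 1 CPM in any library; the vertical axis is its level in MCC and the horizontal axis the highest (left) or lowest (right) level among PB, BM, MEF and iPSC, in CPM on log scales, with counts under 3 drawn at 3. Coloured symbols mark the 240 genes above and the 18 under, by nearest library; the solid line marks equal levels and the dashed line the 4-fold rule.

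The same rule was applied with each library in turn in the place of MCC. It found 588 genes above for iPSC (5.3% of those that could pass), 476 for PB (4.65%), 288 for BM (2.72%) and 112 for MEF (1.05%). It found 304 genes under for PB (3.57%), 96 for iPSC (1.19%), 74 for MEF (0.911%) and 38 for BM (0.469%). MCC thus had fewer genes above than iPSC, PB and BM and more than MEF, and its 18 genes under were the fewest of the 5 libraries. Each library's own genes above held 16.4% of its counts for PB, 10.8% for BM, 3.85% for iPSC and 1.71% for MEF, beside the 6.24% for MCC.

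**Figure D2:**
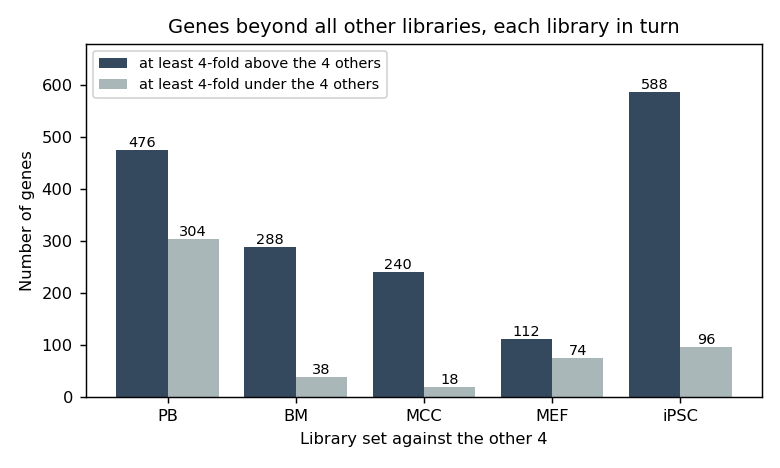
Bars give the number of genes at least 4-fold above (dark) or under (light) all 4 other libraries for each library in turn. MCC has 240 and 18, iPSC has 588 and 96, and MEF has 112 and 74.

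The genes set furthest apart from all 4 others, by the lower end of the counting interval, included macrophage receptors, chemokines and secreted proteins of connective tissue. Fcrls, an Fc receptor-like scavenger receptor known from microglia, stood at 682 CPM in MCC, 0.937 in PB, 0.0982 in BM, 0.0231 in MEF and 0.0574 in iPSC. MCC was the only library above 1 CPM, and the ratio to PB was 728-fold (503 to 1095). Clec3b, which encodes the plasminogen-binding lectin tetranectin, had 296 CPM in MCC, 0.368 in both PB and BM, 0.0462 in MEF and 0.249 in iPSC. It was 804-fold (449 to 1611) above PB, although MEF, the fibroblast library, had 2 reads of it. The chemokine gene Ccl12 had 3426 reads in MCC, 3 in BM, 1 in PB and 0 in MEF and iPSC, a ratio to BM of 1077-fold (368 to 5223). Its neighbour Ccl8 stood at 467 CPM in MCC, 2.29 in MEF, 0.368 in BM, 0.100 in PB and 0.0765 in iPSC. Saa3, an acute-phase apolipoprotein, had 605 CPM in MCC, 3.62 in iPSC, 2.68 in PB, 0.442 in BM and 0.162 in MEF. Agtr2, the type 2 receptor of angiotensin II, which is known from fetal connective tissue, had 413 CPM in MCC and 2.43 in MEF, with 3 reads in BM and 0 in PB and iPSC. In these 6 genes the highest other library was PB, BM, MEF or iPSC in different cases, so no single library set the ratio.

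Several of those genes are known from other tissues and had few reads anywhere but in MCC. Cyp2f2, a cytochrome P450 known from lung airway cells, had 674 reads in MCC and 1, 1, 2 and 4 in PB, BM, MEF and iPSC. Reg1, a secreted lectin of the exocrine pancreas, had 864 reads in MCC, 4 in MEF and 0 in the other three. Reg3g, an antibacterial lectin of the gut that lies next to Reg1, had 295 reads in MCC and 0 in all 4 others. Measured against a floor of 3 counts in PB, Reg3g was at least 68.0-fold higher. Kera, the corneal proteoglycan keratocan, likewise had 231 reads in MCC and 0 elsewhere, at least 53.2-fold higher. Scaled by total counts it was no longer past the rule, because its level fell under the 5 CPM minimum. Its log2 ratio was still 5.61. Sectm1a, a secreted and transmembrane protein, had 441 reads in MCC, 1 in BM and 1 in iPSC. Asb10, a SOCS box protein, stood at 16.04 CPM in MCC and at most 0.210 elsewhere. The highest of these in MCC was Reg1, at 19.997 CPM, and the lowest Kera, at 5.35 CPM, far lower than Fcrls or Saa3. Others in the group were Egfl6, an EGF-like matrix protein, at 286 CPM in MCC and 3.61 in MEF, and Adamts15, a proteoglycan-cleaving protease, at 184 CPM and 2.28 in iPSC. Apod, a lipid-carrying apolipoprotein, had 437 CPM and 6.82 in MEF. Col28a1, a collagen chain, had 127 CPM and 2.29 in MEF. Nxpe5 stood at 264 CPM in MCC, 2.68 in BM, 2.11 in PB, 0.0231 in MEF and 0.0574 in iPSC, so its traces outside MCC were in the blood libraries.

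**Figure D3:**
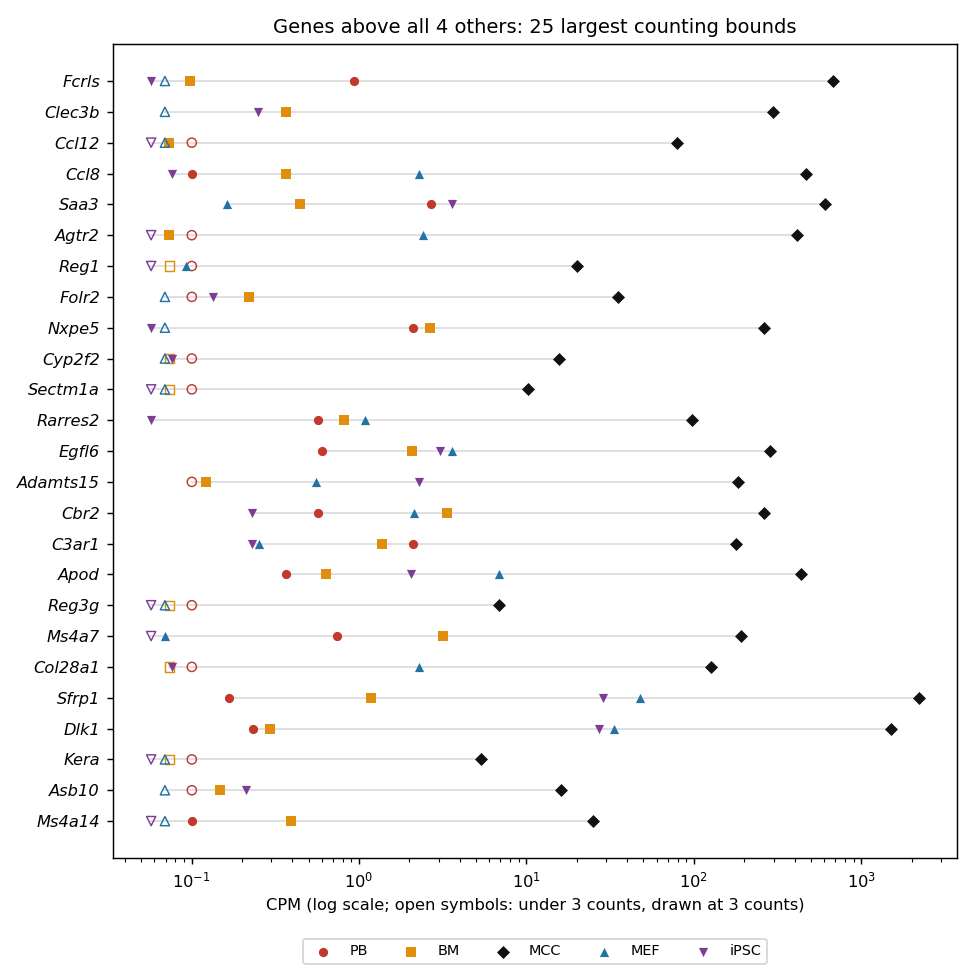
Levels in all 5 libraries, in CPM on a log scale, of the 25 named genes above with the largest counting bounds; open symbols are levels under 3 counts, drawn at 3 counts. Black diamonds (MCC) stand to the right of every other library, from 5.35 CPM for Kera to 2217 CPM for Sfrp1.

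Macrophage genes were split between those above all 4 others and those shared with blood and marrow. The gene lists used from here on were chosen with earlier results of these data known, so their shares and ranks are descriptions only. They are compared with all 18416 genes that reached 1 CPM in at least 1 library, of which 1.30% were above and 0.0977% under. Of 30 macrophage identity genes, 8 were above and 0 under, with a median log2 ratio to the highest other library of −0.09, against −1.01 over all measured genes. Cd68, a lysosomal protein of macrophages, stood at 586 CPM in MCC, 99.7 in PB, 74.4 in BM, 17.4 in iPSC and 1.06 in MEF. Fcgr1, the high-affinity IgG receptor, had 203 CPM in MCC, 18.02 in BM, 15.8 in PB and 0 reads in MEF and iPSC. Ms4a7 and Ms4a6d, 4-span membrane proteins of myeloid cells, stood at 191 and 325 CPM in MCC; their highest other levels were 3.17 CPM in BM and 20.99 CPM in PB. Ms4a14, which lies next to Ms4a7, had 25.1 CPM in MCC and 0.393 in BM. Lyz2, the lysozyme of myeloid cells, was short of the rule because BM was higher, at 6849 against 5597 CPM. Csf1r, the receptor for the macrophage growth factor, was 1.58-fold above PB, at 869 against 550 CPM. Over the list, 15 of the 30 genes were highest in MCC, against 3663 of all 18416 measured genes.

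Markers of resident tissue macrophages had the largest share of genes above among the lists with a call. Of 27 measured, 12 were above and 0 under, with a median log2 ratio to the highest other library of 1.95. Mrc1, the mannose receptor, stood at 689.9 CPM in MCC, 58.1 in BM, 3.45 in PB, 0.650 in iPSC and 0.0925 in MEF. Selenop, a secreted selenium carrier, had 2221 CPM in MCC, 141 in PB, 116 in BM, 12.5 in MEF and 6.62 in iPSC. Gas6, the ligand of the receptors MERTK and AXL, stood at 1570.1 CPM in MCC, 98.3 in MEF, 27.1 in BM, 13.7 in iPSC and 0.368 in PB. Cbr2, a carbonyl reductase, was 79.1-fold (66.8 to 94.3) above BM, at 264 against 3.34 CPM. Stab1, a scavenger receptor, had 235 CPM in MCC and 6.95 in BM, and the lectin gene Clec10a had 211 and 20.6 CPM. Folr2, a folate receptor of resident macrophages, had 1521 reads in MCC, 9 in BM, 7 in iPSC, 1 in MEF and 0 in PB. Of its exon bases 63.1% lie under an exon of a gene on the opposite strand, and the sources used here do not state whether counting used strand, so its count is uncertain.

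Other resident markers were near 0 in MCC. Timd4 and Clec4f, a phagocytic receptor and a Kupffer cell lectin, had 0 reads in MCC, Vsig4, a complement receptor, had 2 and Lyve1, a hyaluronan receptor, had 4. Cd163, the haemoglobin scavenger receptor, was 45.3 CPM in BM and 0.995 in MCC. F13a1, a coagulation factor subunit made by macrophages, was 2.21-fold above BM, at 901 against 408 CPM, and Siglec1, a sialic acid-binding receptor, was 1.24-fold above it. Among the myeloid transcription factors and nuclear receptors, 2 of 45 were above, among them Maf. It stood at 232 CPM in MCC, 21.4 in PB, 15.6 in MEF, 13.5 in BM and 1.57 in iPSC. Spi1, which encodes PU.1, was at 261 CPM in MCC and 401 in BM, so it was not above. Of 16 microglia markers 3 were above: Fcrls, the lipid receptor Trem2 at 301 CPM in MCC and 10.8 in BM, and the receptor gene Gpr34 at 29.9 CPM and 1.82 in BM. P2ry12, a purine receptor of microglia, stood at 12.5 CPM in MCC and 11.5 in PB, and Sall1, their transcription factor, at 3.89 CPM in MCC and 21.8 in iPSC.

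The complement genes above were those of the C1 complex, its inhibitor and 1 receptor. The C1 complex consists of the recognition protein C1q and the proteases C1r and C1s, and the inhibitor encoded by Serping1 blocks those proteases. Of 18 complement genes 7 were above and 0 under (median log2 ratio to the highest other library 1.73). C1qa stood at 972 CPM in MCC, 58.8 in BM, 3.11 in PB, 0.0462 in MEF and 0.0191 in iPSC. C1qb had 2288 CPM in MCC and 62.0 in BM, and C1qc 1615 and 61.1 CPM, so the 3 chains were at similar levels to each other in BM and 16.5-fold, 36.9-fold and 26.4-fold higher in MCC. C1s1, the C1s protease, had 132 CPM in MCC, 5.94 in MEF, 5.797 in iPSC, 1.37 in BM and 0.0335 in PB. C1ra, the C1r protease, had 105 CPM in MCC, 8.83 in MEF and 6.78 in BM, and Serping1 had 274 CPM in MCC, 18.5 in BM and 13.5 in MEF. The nearest library of the C1q chains was thus BM and that of the proteases MEF. C3ar1, the receptor of C3a, stood at 179 CPM in MCC, 2.11 in PB, 1.37 in BM, 0.254 in MEF and 0.230 in iPSC. C3 itself was lower in MCC than in BM, at 239 against 1303 CPM, and properdin (Cfp) was 1.55-fold above BM.

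Promoters were read for the genes above because groups of them shared a pattern over the libraries. RefSeq sequences of 250 bases before to 50 bases after the annotated start (GRCm38.p6) were matched by symbol for 166 of the 240 genes above and 15 of the 18 under. The letters GAGGAAGT, a core bound by PU.1, were searched on either strand. At least 1 promoter held them in 3.61% of the genes above and 3.69% of all 27025 genes in the promoter table. By the grouping made after the values were seen, they were in 0 of 57 cultured-side genes and 0 of 57 on neither side. They were in 1 of 32 genes under 1 CPM in all 4 others and 5 of 20 blood-side genes (25%). The 5 genes were C1qc, Hpgds, Pf4, Selenop and Sult1a1. Letters for C/EBP factors (TTGCNNAA, N any base), AP-1 (TGANTCA) and an E box (CACGTG) were searched as well. Of the same 20 genes, 30% held C/EBP and 20% AP-1 letters, against 12.2% and 8.97% of all genes. The interferon letters below were in 10% of them. The E box was in 0%, and the MAF, GC box and TATA box letters below in 15%, 25% and 10%. These last shares were below those of all genes. Several motifs were read in a group made after the fact, so no share is a test. The interferon response motif, searched as GAAA, any 2 bases and GAAA, were in 6.02% of the genes above and 3.99% of all genes, and in Bst2 they occurred as 2 overlapping copies. The GC box letters GGGCGG were in 12 of the 15 genes under (80%), against 40.4% of the genes above and 38.2% of all genes. Counted per promoter, they were in 66.7% of 24 for the genes under and 35.7% of all 32851. The genes under had to reach 5 CPM in all 4 others, a filter not set on the other sets, so these shares do not compare like sets. A match is a description of letters, not of binding. Stretches just before the start are shown for 4 genes with the PU.1 core, for Bst2, and for the neighbouring chemokine genes Ccl12 and Ccl8, both among the 5 genes with the largest counting bounds. They run 5′ to 3′ on the strand of the gene, with every match to a searched motif in capitals. In C1qc, Pf4 and Selenop the PU.1 core appears as its reverse complement ACTTCCTC. Selenop has 3 annotated starts in the table; the stretch before the earliest is shown, and the promoter of the last holds a TATA box and no PU.1 core. Both chemokine genes hold the TATA box letters TATAAA close to the start, as did a promoter of 15.7% of all genes and 16.3% of the genes above. Both also hold TCAGCA, the reverse complement of TGCTGA, a core of MAF sites found in 21.7% of all genes and 21.1% of the genes above. By group, that core was in 37.5% of genes under 1 CPM in all 4 others and 14.04% to 21.05% elsewhere.
C1qc (chr4:136892915-136893114, minus strand): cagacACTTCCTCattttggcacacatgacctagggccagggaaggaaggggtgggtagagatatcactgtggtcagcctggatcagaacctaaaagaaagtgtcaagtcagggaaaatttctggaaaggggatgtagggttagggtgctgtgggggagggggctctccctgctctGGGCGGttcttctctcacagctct
Hpgds (chr6:65144731-65144830, minus strand): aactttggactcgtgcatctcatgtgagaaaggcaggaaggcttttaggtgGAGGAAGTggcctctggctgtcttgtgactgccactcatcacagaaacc
Pf4 (chr5:90772335-90772434, plus strand): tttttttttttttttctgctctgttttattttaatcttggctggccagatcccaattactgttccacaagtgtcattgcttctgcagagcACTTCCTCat
Selenop (chr15:3270567-3270766, plus strand): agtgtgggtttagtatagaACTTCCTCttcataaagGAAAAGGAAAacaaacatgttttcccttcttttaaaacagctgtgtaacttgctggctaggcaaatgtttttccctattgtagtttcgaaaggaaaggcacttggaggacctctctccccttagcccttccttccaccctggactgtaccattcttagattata
Bst2 (chr8:71537473-71537622, minus strand): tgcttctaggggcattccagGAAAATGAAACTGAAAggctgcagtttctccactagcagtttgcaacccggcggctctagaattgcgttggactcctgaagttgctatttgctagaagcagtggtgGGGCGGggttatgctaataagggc
Ccl12 (chr11:82101695-82101844, plus strand): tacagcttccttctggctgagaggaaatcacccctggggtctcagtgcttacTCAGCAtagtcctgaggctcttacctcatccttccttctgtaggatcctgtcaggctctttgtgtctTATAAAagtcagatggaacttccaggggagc
Ccl8 (chr11:82115035-82115184, plus strand): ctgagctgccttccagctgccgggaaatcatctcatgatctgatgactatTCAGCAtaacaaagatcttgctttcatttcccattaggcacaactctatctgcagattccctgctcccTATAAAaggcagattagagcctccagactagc

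Of the genes whose promoters are shown, Hpgds encodes the haematopoietic prostaglandin D synthase. It stood at 101 CPM in MCC, 3.68 in BM, 1.64 in PB, 0.0462 in MEF and 0.0765 in iPSC. Pf4, a chemokine of platelets and of some macrophages, had 248 CPM in MCC, 21.4 in PB, 16.4 in BM, 0.0462 in MEF and 0.0191 in iPSC. The other platelet and red cell genes did not go with it: Pf4 was the only one of 25 erythroid and megakaryocyte genes above, and their median log2 ratio to the highest other library was −7.19.

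Among secreted signals, 6 of 25 chemokine genes were above and 0 under, with a median log2 ratio to the highest other library of 0.02. Ccl8, Ccl12 and Ccl11 (eotaxin) lie side by side on chromosome 11, 82057823 to 82116799, and all 3 were above; Ccl11 had 8.36 CPM in MCC, 1.87 in MEF and 0 reads in the other three. Ccl7 and Ccl2, which encode monocyte-attracting chemokines, were not above: Ccl7 stood at 83.6 CPM in MCC and 116 in MEF, and Ccl2 at 67.9 and 57.0 CPM. Cxcl12, a chemokine of stromal cells that binds the receptor CXCR4, had 898 CPM in MCC, 197 in BM, 171 in MEF, 4.74 in iPSC and 0.234 in PB. Cxcl5, a neutrophil-attracting chemokine, had 137 CPM in MCC and 19.4 in MEF. Of 28 cytokine and acute-phase genes, 3 were above: Saa3, Il18 at 31.4 CPM in MCC and 5.49 in PB, and Il33 at 10.7 CPM and 1.01 in iPSC. Interleukins 18 and 33 both belong to the interleukin 1 family. Their list had a median log2 ratio to the highest other library of −2.81, below the −1.01 of all measured genes.

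Interferon-stimulated genes were mostly shared with blood. Of 44 measured, 2 were above and 0 under (median −0.15). Ifi27l2a, an interferon-inducible mitochondrial protein, stood at 1213 CPM in MCC, 135 in PB, 65.6 in BM, 0.694 in MEF and 0.689 in iPSC. Bst2, which encodes the viral restriction factor tetherin, had 476 CPM in MCC, 84.4 in iPSC, 70.0 in BM, 45.5 in PB and 29.9 in MEF, so every library held it and MCC was 5.63-fold (5.45 to 5.82) above the nearest. Ifi204 and Isg15, a DNA sensor and a ubiquitin-like modifier, were 1.95-fold and 1.94-fold above PB. Of 27 MHC class II and antigen presentation genes none was above or under, and 0 were highest in MCC. Their median log2 ratio to the highest other library was −2.71. The median level was 15.6 CPM in MCC, 220 in PB and 82.4 in BM.

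Receptors for immune complexes, debris and lipids were above in part. Of 35 Fc, lectin and inhibitory receptors, 4 were above: Fcrls, Fcgr1, the inhibitory IgG receptor gene Fcgr2b and the lectin gene Clec4n (dectin-2). Fcgr2b stood at 657 CPM in MCC, 124 in PB and 95.9 in BM, and Clec4n at 108 CPM in MCC and 7.80 in PB. Both had at most 0.268 CPM in MEF and iPSC. Fcgr3 and the adaptor Fcer1g, with which it pairs, were short of the rule at 2.60-fold and 1.70-fold above BM. Of 29 scavenger and uptake genes, 4 were above: Gas6, Mrc1, Stab1 and Marco, a collagenous scavenger receptor, with 616 reads in MCC, 12 in BM, 6 in PB, 0 in MEF and 1 in iPSC. Marco remained low in MCC, at 14.3 CPM.

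Lysosomal genes were higher in MCC than in any other library for 30 of 43, but only 5 passed the 4-fold rule (median log2 ratio to the highest other library 0.45). Over all 18416 measured genes, 3663 were highest in MCC. Ctsb, the cysteine protease cathepsin B, stood at 5942 CPM in MCC, 790.3 in MEF, 761 in BM, 591 in PB and 229 in iPSC, 7.52-fold (7.43 to 7.60) above MEF. Lgmn, the asparagine-specific protease legumain, had 1315 CPM in MCC, 110.04 in iPSC, 87.1 in MEF, 86.8 in PB and 55.5 in BM. Cathepsin F (Ctsf) had 68.1 CPM in MCC and 11.2 in BM, and Atp6v0d2, a proton pump subunit of osteoclasts and macrophages, 7.13 and 0.589 CPM. Of 27 lipid-associated macrophage and osteoclast genes, 6 were above. Lipoprotein lipase (Lpl) had 554 CPM in MCC, 60.5 in MEF, 36.4 in BM, 11.7 in PB and 5.49 in iPSC. Fabp5, a fatty acid carrier, had 1535 CPM in MCC and 327 in MEF, and Gpnmb, a lysosomal glycoprotein, 567 and 120.3 CPM. Apoc1, an apolipoprotein, had 63.0 CPM in MCC and 10.2 in iPSC. Spp1 (osteopontin) was 2.81-fold above MEF and so short of the rule.

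Fibroblast markers were split as well. Of 33 markers of universal and adventitial fibroblasts, 11 were above and 0 under (median log2 ratio to the highest other library 0.56). Sfrp1, a secreted inhibitor of Wnt, stood at 2217 CPM in MCC, 48.1 in MEF, 28.5 in iPSC, 1.18 in BM and 0.167 in PB, and was 46.1-fold (44.2 to 48.2) above MEF. Dcn (decorin) had 2152 CPM in MCC, 141 in MEF, 1.99 in BM, 0.459 in iPSC and 0.368 in PB. Lum (lumican) had 543 CPM in MCC, 18.8 in MEF and at most 0.540 in the others. Dcn, Lum and Kera are neighbours on chromosome 10, 97479609 to 97613692. Dpt (dermatopontin) stood at 436 CPM in MCC, 16.8 in MEF and at most 0.245 elsewhere, and Pdgfra, the PDGF receptor of fibroblasts, at 665 and 107 CPM with at most 2.37 elsewhere. In each of these MEF was second, and MCC was from 6.20-fold (Pdgfra) to 46.1-fold (Sfrp1) higher. Abi3bp, a matrix protein, had 124 CPM in MCC and 3.01 in MEF, Sfrp2 292 and 7.70, and the protease gene Htra3 50.5 and 8.97. Cd34, a surface glycoprotein of such fibroblasts and of blood progenitors, had 201 CPM in MCC, 36.6 in BM, 18.4 in MEF, 5.20 in iPSC and 0.603 in PB.

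Other markers of that list were not above. Pi16 and Dpp4, which mark fibroblast progenitors in adult tissue, were low in MCC, at 10.6 and 2.04 CPM; their highest levels were 174 CPM in BM for Pi16 and 108 CPM in PB for Dpp4. Gsn (gelsolin) was 1.49-fold above MEF, and Lox, which cross-links collagen, was lower in MCC than in MEF, at 984 against 1772 CPM. Pdgfrb was also lower, at 99.8 against 479 CPM, in contrast to Pdgfra.

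Among matrix genes, the fibrillar collagens did not go together. Of 40 collagen and proteoglycan genes 7 were above and 0 under (median −0.42). Col3a1, collagen III of loose connective tissue, stood at 11734.5 CPM in MCC, 1770 in MEF, 166 in iPSC, 3.68 in BM and 1.37 in PB. Col1a1 and Col1a2, the chains of collagen I, were at 6563 and 5548 CPM in MCC and higher in MEF, at 8923 and 6384 CPM. The basement membrane-associated collagen Col15a1 had 89.2 CPM in MCC and 10.3 in MEF, and the proteoglycan podocan (Podn) 108 and 14.9 CPM. Of 46 matricellular and elastic fibre genes 6 were above. Igfbp4, a binding protein of insulin-like growth factors, had 2179 CPM in MCC, 231 in MEF, 220 in BM, 151 in iPSC and 133 in PB. The growth factor gene Igf1 itself had 285 CPM in MCC, 12.5 in MEF, 9.13 in BM, 0.201 in PB and 0.115 in iPSC. Igfbp3 stood at 234 CPM in MCC and 27.4 in MEF, Efemp1 (fibulin 3) at 556 and 36.6, and elastin (Eln) at 113 and 25.2. Of 32 protease and inhibitor genes 3 were above and 1 under. Above, with Adamts15, were Serpine2, an inhibitor of thrombin and plasminogen activators, at 242 CPM in MCC and 52.1 in iPSC (short of the rule when scaled by total counts), and Mmp27, a matrix metalloproteinase, at 8.68 CPM and 1.08 in BM. The gene under was Plaur, described below with the others.

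Of 57 growth factors and receptors 7 were above, among them Agtr2. Ptn, which encodes the heparin-binding growth factor pleiotrophin, stood at 2290.3 CPM in MCC, 469 in MEF, 0.363 in iPSC, 0.221 in BM and 0.201 in PB. Vegfd, a growth factor of lymphatic vessels, had 330.5 CPM in MCC and 13.2 in MEF, and Kitl, the ligand of KIT, 110.2 and 14.2 CPM. Angptl4, an inhibitor of lipoprotein lipase, had 92.0 CPM in MCC and 12.005 in BM. Of 50 Wnt and BMP genes 5 were above. These were Sfrp1, Sfrp2, the R-spondin receptor gene Lgr5 at 116 CPM in MCC and 16.9 in MEF, its ligand gene Rspo1 at 12.5 CPM and 2.54 in iPSC (also short of the rule when scaled by total counts), and Gdf10, a BMP-like factor, at 6.67 CPM and 1.13 in MEF. The related transcription factor genes Osr1 and Osr2, known from embryonic connective tissue, were the 2 above of 62 Hox and limb patterning genes. Osr1 stood at 119.6 CPM in MCC and 27.7 in MEF, Osr2 at 39.5 and 8.90. Of 17 retinoid genes 2 were above, Rarres1 and Rarres2, which were named for their response to retinoids. Rarres2 encodes the chemoattractant chemerin and stood at 98.2 CPM in MCC, 1.09 in MEF, 0.810 in BM, 0.569 in PB and 0.0574 in iPSC. For Rarres2, 33.6% of exon bases lie under an exon of an opposite-strand gene, so its count is uncertain. Of 25 adipocyte genes 4 were above, Dlk1, Fabp5, Lpl and Angptl4, while the defining adipocyte markers Adipoq, Plin1 and Cidec were all under 5 CPM.

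Imprinted genes of one region stood together. Dlk1, Rtl1, Dio3os and Dio3 lie in a row on chromosome 12, from 109452823 to 110281097, when only protein-coding genes and the genes above are counted. All 4 were above. Dlk1, a Notch pathway ligand that blocks fat cell formation, had 1512 CPM in MCC, 33.3 in MEF, 27.0 in iPSC, 0.295 in BM and 0.234 in PB. Dio3, which inactivates thyroid hormone, had 19.7 CPM in MCC, 1.48 in MEF, 0.784 in iPSC and 0 reads in PB and BM. Its antisense RNA Dio3os stood at 6.13 CPM and the retrotransposon-derived gene Rtl1 at 5.62 CPM in MCC, with 0.393 and 1.09 CPM in MEF. Rian, a noncoding RNA of the same region, was close in MCC and MEF, at 431 and 426 CPM, and H19, on another chromosome, was 3.14-fold above MEF. Of 29 imprinted genes, 3 were above and 0 under (Dio3os was not on the list).

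In all, 31 of the 239 genes above with a position in GENCODE M21 (mm10) lay next to another gene above, in 13 runs. Only protein-coding genes and the genes above were kept in this order. No such count was made for other sets of genes, so whether 31 is more than usual was not tested. Besides the 4 runs of 3 or more named so far or, for C1qb, C1qc and C1qa, on chromosome 4 from 136880129 to 136898803, there were pairs such as C1ra with C1s1, Ms4a14 with Ms4a7, Reg1 with Reg3g, and Tmem176b with Tmem176a. Tmem176a and Tmem176b, membrane proteins of myeloid cells, were each about as far above MEF, the first at 220.1 against 48.7 CPM and the second at 409 against 93.6 CPM. Set per kilobase of exon, so that genes can be compared, the members highest in MCC were Ifi27l2a at 2619 CPM per kilobase, C1qb at 2103 and Col3a1 at 1195. Next were Ctsb at 982, C1qa at 934, Ccl8 at 913, C1qc at 836 and Selenop at 782.

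**Figure D4:**
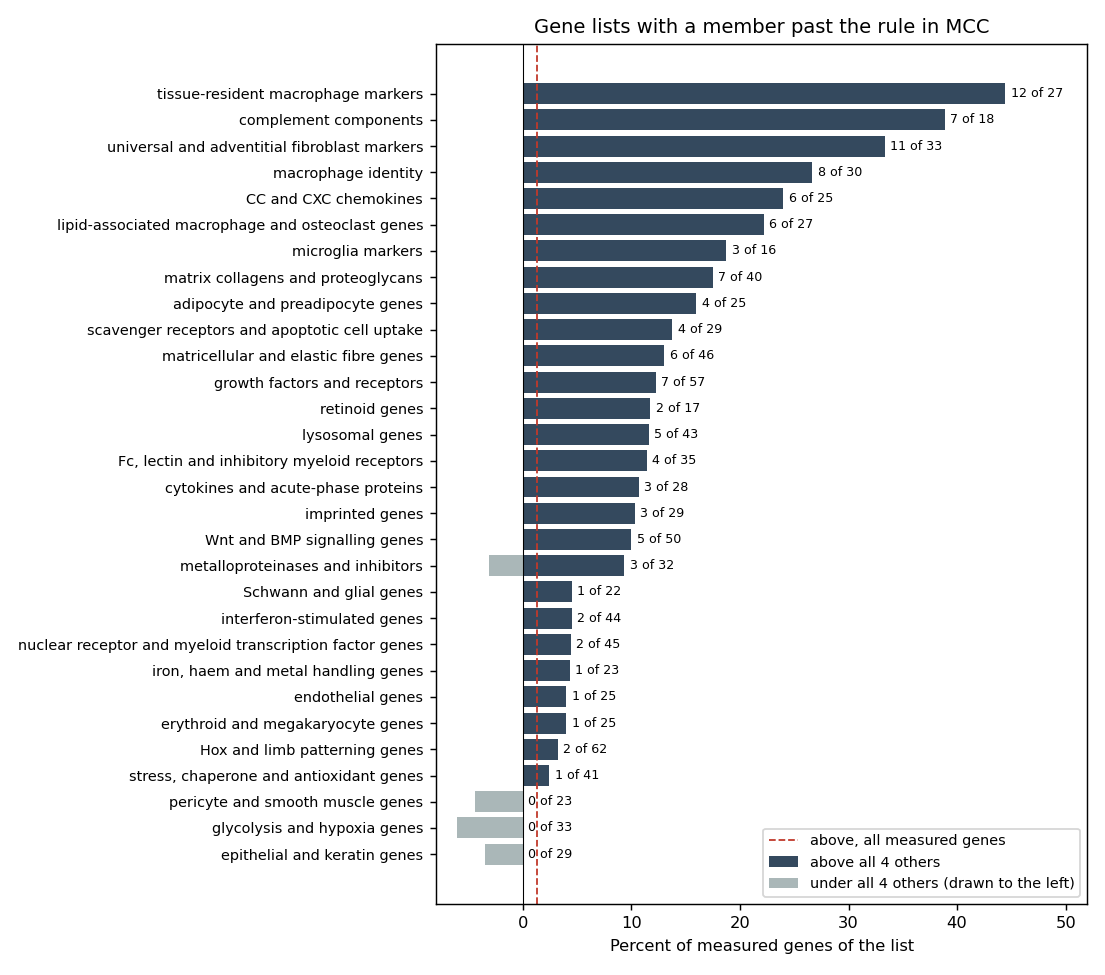
For each gene list with a gene past the rule, the dark bar gives the percent of measured genes above all 4 others and the light bar, drawn to the left, the percent under; numbers give genes above of genes measured, and the dashed line marks the 1.30% of all measured genes above. Resident macrophage markers (12 of 27), complement (7 of 18) and universal fibroblast markers (11 of 33) have the longest bars.

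Of the 45 lists, 15 held no gene above or under. Neither ribosomal protein genes nor oxidative phosphorylation genes had one, although 43 of 47 and 23 of 29 were highest in MCC. Their medians were 0.33 and 0.30 on the log2 scale. Of all 18416 measured genes, 3663 were highest in MCC. The 52 cell cycle genes, 46 cytoskeleton and adhesion genes, 39 YAP target and immediate-early genes and 30 cholesterol and fatty acid synthesis genes had 0 above and 0 under. So did the neutrophil, lymphoid, pluripotency and mast cell lists, in which no gene was highest in MCC.

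The 18 genes under all 4 others were fewer, and in 12 of them the highest level was in PB. MEF was the nearest library for 12, BM for 3, iPSC for 2 and PB for 1. In MCC 5 of them were under 1 CPM and 12 under 5 CPM. Tspan2, a tetraspanin membrane protein, stood at 0.231 CPM in MCC (10 reads), 32.2 in PB, 27.4 in BM, 10.04 in MEF and 11.5 in iPSC. It was 43.4-fold (23.4 to 91.1) below MEF and so the most distant of the 18. Rap1gap2, which switches off the small GTPase RAP1, had 0.440 CPM in MCC (19 reads), 211 in PB, 121 in BM, 11.8 in MEF and 21.4 in iPSC, 26.9-fold (17.1 to 45.1) below MEF. Pdlim1, an adaptor bound to actin filaments, had 3.73 CPM in MCC, 121 in iPSC, 105 in MEF, 64.3 in PB and 41.7 in BM. Pla2g7, which breaks down platelet-activating factor, stood at 1.81 CPM in MCC, 253 in PB, 62.7 in BM, 31.3 in MEF and 20.2 in iPSC. Both were 11.2-fold below the nearest library, BM for Pdlim1 and iPSC for Pla2g7.

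Spata13, an activator of small GTPases, had 1.76 CPM in MCC, 373 in PB, 75.1 in BM, 16.4 in MEF and 18.4 in iPSC. Dock5, an activator of RAC, had 12.5 CPM in MCC and between 63.5 (MEF) and 161 CPM (BM) in the others. Ets1, a transcription factor of lymphocytes and connective tissue, stood at 8.49 CPM in MCC, 1358 in PB, 198 in BM, 92.9 in MEF and 61.6 in iPSC. Bach2, a repressor known from lymphocytes, had 0.856 CPM in MCC, 158 in PB, 67.9 in BM, 5.16 in MEF and 7.16 in iPSC. The RNA-binding protein gene Strbp had 5.58 CPM in MCC and at least 31.1 elsewhere, and Prr5l, a partner of the kinase complex mTORC2, 0.833 CPM in MCC and at least 5.13.

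The remaining genes under include membrane carriers and receptors. Slc2a3, the glucose carrier GLUT3, had 1.18 CPM in MCC, 7.89 in MEF, 1837 in iPSC, 383 in BM and 219 in PB. Slc16a3, the lactate carrier MCT4, stood at 36.7 CPM in MCC, 151 in MEF, 175 in iPSC, 235 in BM and 402 in PB. These were the 2 under among 33 glycolysis and hypoxia genes; Hk2, a hexokinase, was lowest in MCC too, at 13.7 CPM against 24.2 in PB, short of the rule. Slc2a1, the carrier GLUT1, stood at 35.0 CPM in MCC and 34.2 in BM. The glycolytic enzyme gene Gapdh stood at 2971 CPM in MCC, between 557 in PB and 3804 in MEF, and Pkm at 1669 CPM in MCC, between 728 in PB and 4188 in iPSC. Slc20a1, a phosphate carrier, had 12.9 CPM in MCC and between 93.2 (BM) and 142 CPM (MEF) in the others. Plaur, the urokinase receptor, had 6.46 CPM in MCC, 45.0 in MEF, 83.6 in iPSC, 255 in BM and 468 in PB. Ptgs2, the inducible cyclooxygenase, had 1.90 CPM in MCC, 7.73 in BM, 163 in iPSC, 171 in MEF and 380 in PB, so BM alone set its ratio of 4.07-fold. B3gnt5, a glycosyltransferase of glycolipids, had 0.509 CPM in MCC and at least 5.04 elsewhere. Mcam, the adhesion molecule CD146, had 1.64 CPM in MCC, 8.54 in PB and 15.1 in BM, 76.8 in MEF and 78.1 in iPSC. Sfn, the cell cycle inhibitor 14-3-3 sigma, had 2.52 CPM in MCC, 14.2 in MEF and 383 in iPSC.

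**Figure D5:**
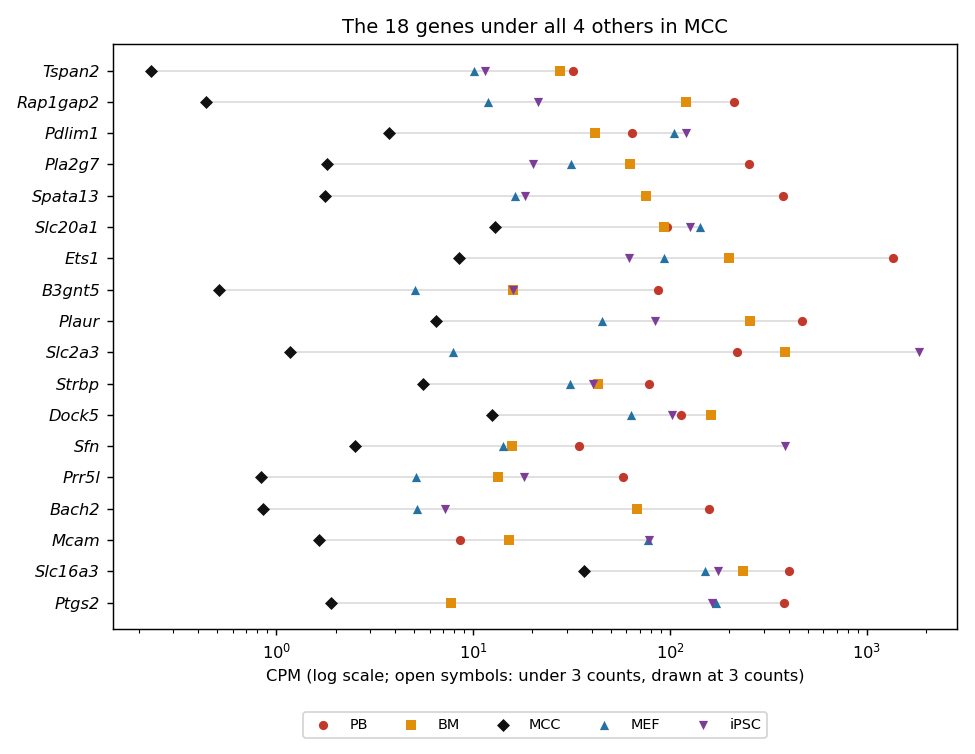
Levels in all 5 libraries, in CPM on a log scale, of the 18 genes under all 4 others, ordered by counting bound. Black diamonds (MCC) stand to the left of every other library, from 0.231 CPM for Tspan2 to 36.7 CPM for Slc16a3.

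At the threshold the calls were close. Just inside on the higher side were Tspan11 at 4.003-fold, Thra (a thyroid hormone receptor) at 4.01-fold and Rgma (an axon guidance protein) at 4.04-fold above MEF, and just outside were Blvra (biliverdin reductase) at 3.99-fold, Wwp1 (a ubiquitin ligase) at 3.98-fold and Dpep1 (a dipeptidase) at 3.96-fold. On the lower side Ptgs2 (4.07-fold), Slc16a3 (4.11-fold) and Dock5 (5.07-fold) were just inside. Among those just outside were the kinase gene Plk3 (3.93-fold) and the glycosyltransferase gene Gcnt2 (3.71-fold). The lower end of the counting interval was itself at least 4-fold for 208 of the 240 genes above and 15 of the 18 under.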

How the data were processed

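The data are RNA sequencing of 5 mouse libraries (polyA RNA after Trizol extraction, per the labels' protocols), deposited as raw read counts per gene symbol. The submitters' processing notes name STAR, featureCounts and mm10, and the sources used here give no versions, annotation, strand setting or filters. Columns were matched to libraries by the code in their names, and 0 columns were left unused. Depth was 30078366 to 47557598 counts, so 3 counts were 0.0574 to 0.100 CPM.

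CPM values used TMM-scaled library sizes (edgeR 4.0.16 in R 4.3.3); Python 3.11.15, pandas 2.3.3, numpy 2.4.6, scipy 1.17.1 and matplotlib 3.10.9 did the rest. Ratios carry exact conditional (Clopper-Pearson) 95% intervals, and reads without molecular identifiers are not independent molecules. The calculation was tested on simulated data.

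The genes, the 45 lists (1464 distinct genes, 1452 in the table, some on several lists) and the rules were chosen with earlier results of these data known. The rule named the 25 genes per direction with the largest counting bounds (all 18 under), 3 on each side of the threshold, runs of 3 or more neighbours and, per list, up to 5 genes past the rule and 2 short of it, highest in MCC. Predicted genes and clones were not named (19 of the genes above). A few genes that the rule named are not reported here. Chosen after their values were seen were Abi3bp, C1ra, C1s1, Ccl2, Cd163, Cd34, Clec10a, Clec4f, Dpp4, Hk2, Hpgds, Htra3, Lyve1, P2ry12, Pi16, Sall1, Slc2a1, Sult1a1, Timd4, Tmem176a, Tmem176b and Vsig4. Positions and exon overlaps came from GENCODE M21 (33782 symbols matched once). Genes with similar copies (Ms4a, Reg and Ccl families) could share reads. Alternatives were 3 other scalings (one by DESeq2 1.42.0), other folds, minimum levels and floors, the counting bound, and leaving out each other library.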

Additional observations from a re-analysis of the deposited data

How the results depend on the processing

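With 1 library per group nothing here could be checked over replicates. No paired analysis was possible because no group had a second library. The count of genes above all 4 others was 240, and of genes under all 4 others 18. Other scalings gave 210 to 246 and 18 to 20; 209 of the 240 and 15 of the 18 passed under all 3 of them. B3gnt5, Bach2 and Prr5l, close to the 5 CPM minimum in MEF, were lost under DESeq2 size factors and under total counts. Of the named genes above, Tspan11, Thra and Rgma were lost under both, Kera, Serpine2 and Rspo1 under total counts, and Tspan11 under TMM without the most abundant genes. Kera was lost by the 5 CPM minimum, not by its ratio. No named gene past the rule changed direction, but none could have. Each was at least 4-fold away, and the largest log2 shift between scalings was −0.393 (MCC over iPSC, total counts). The share of MCC counts on genes above was 6.24%, 6.15% with DESeq2 size factors and 5.98% with total counts. At 2-fold the counts were 594 and 96, at 8-fold 126 and 6. A minimum of 1 CPM gave 48 genes under, one of 20 CPM 156 above and 8 under, and no minimum 381 and 93. Comparing MCC with 3 libraries adds genes by construction: without MEF the counts were 617 and 133, and without PB, BM or iPSC 31, 29 or 36 genes were under. Depth set a floor of 3 counts. Setting it at 10 changed neither count and could not have done so, because the 5 CPM minimum lies more than 4-fold above that floor.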
